A study of Mus musculus with 6 samples.

Results

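Melanoma cells are described here as they were captured in the tumor libraries of a mouse single-cell RNA series on CD8+ T cells. They were chosen by measured RNA, as barcodes with at least 500 genes, at least 1000 unique molecular identifiers (UMIs, tags that count single RNA molecules), at most 20% of UMIs from mitochondrial genes and at least 50 UMIs summed over Pmel, Mlana, Tyrp1 and Dct. This rule took 197 of the 1017 filtered cells of the 2 tumor libraries, and of 11125 filtered cells in all 6 libraries of the series. Of these, 139 were among 456 filtered cells of the library labelled Pdcd1fl/fl, and 58 were among 561 filtered cells of the library labelled Pdcd1 cKO. Since the 4 genes chose the cells, their high level is a description and not a finding, and the same holds for genes that vary together with them.

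Thymus, spleen and B16-OVA tumors were each sampled with 1 library per genotype, using PIPseq, which partitions cells into droplets with barcoded beads. Mice of both groups were adult C57BL/6 animals (older than 8 weeks) that carried 2 floxed alleles of Pdcd1, the gene of the inhibitory receptor PD-1. The Pdcd1 cKO mice also carried the E8I transgene, in which Cd8a regulatory sequence drives the recombinase Cre and so limits the deletion to host cells that use this sequence, and the Pdcd1fl/fl controls lacked Cre. Each tumor library pooled 3 mice killed 12 days after tumor cells were placed under the skin, while thymic and splenic libraries came from 1 tumor-free mouse each. B16-OVA is the C57BL/6 melanoma line B16 with a transgene for chicken ovalbumin, which is not analysed here. The same line grew in both groups, so the genotypes named here are those of the host, and the melanoma cells carried no induced deletion of Pdcd1. Tumors were digested with enzymes, dead cells were removed, and cells were enriched with magnetic beads against CD8. Because melanoma cells are those that passed this enrichment, their share is not the share of melanoma cells in the tumor.

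Melanocytes and many melanomas make melanin in melanosomes, organelles built on fibrils of the Pmel protein, in which the enzymes Tyr, Tyrp1 and Dct act, under the transcription factor Mitf. Tumor cells show peptides to CD8+ T cells on major histocompatibility complex (MHC) class I molecules, which are heavy chains paired with beta-2 microglobulin. Interferon-gamma from T cells is known to raise class I, class II and the PD-1 ligand PD-L1 on melanoma cells.

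Pdcd1 (ENSMUSG00000026285, GRCm39 chromosome 1, 93966027 to 93980312, minus strand) is reported first because its deletion defines the labels. Levels are given as CPM, the counts (UMIs) of a gene per 1000000 UMIs summed over the cells named. Whole libraries labelled Pdcd1fl/fl and Pdcd1 cKO held 76.3 and 102 CPM of Pdcd1 in tumors, 1.88 and 6.89 CPM in the thymus, and 0.337 and 11.6 CPM in the spleen. Pdcd1 RNA thus went against the labels in the thymus and the spleen, and each direction between libraries given here rests on the labels as deposited. Whole tumor libraries also differ in their share of melanoma cells. In the other filtered tumor cells, Pdcd1 was at 172 and 143 CPM, a log2 ratio of -0.27. Melanoma cells held 8 and 4 UMIs of Pdcd1, or 1.52 and 1.75 CPM. Each count covers a whole gene, so the loss of single exons is not visible.

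Values of a pair are always from the library labelled Pdcd1fl/fl and then from the library labelled Pdcd1 cKO, and a ratio without further words is the log2 ratio of the second over the first. With 1 library per genotype there is no replicate, so no test was made, and the ranges in parentheses are 95% intervals that cover counting error only. Cells of a library share their mice and their preparation and were not treated as replicates. Barcodes shared by the 2 tumor libraries numbered 0.

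Melanoma cells were 30.5% (26.3 to 34.9, exact binomial) and 10.3% (7.94 to 13.2) of the filtered cells. Of the UMIs of all filtered cells in their libraries, melanoma cells carried 56.0% and 28.8%. They were deeper than their neighbours. Their median was 32272 UMIs (range 6498 to 112655) and 35962.5 UMIs (6476 to 121808), against 10722 and 8955 in the other filtered cells. Median genes per melanoma cell were 5332 and 5133, and mitochondrial genes took a median 3.76% and 3.03% of their UMIs.

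Rule genes contributed a median of 510 and 492 UMIs per melanoma cell, or 1.41% and 1.36% of its UMIs. The lowest cells inside had 61, 72 and 78 UMIs in the first library and 65, 71 and 88 in the second, and the highest cells outside had 48, 37 and 15 UMIs and 17, 17 and 12 UMIs.

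**Figure D1:**
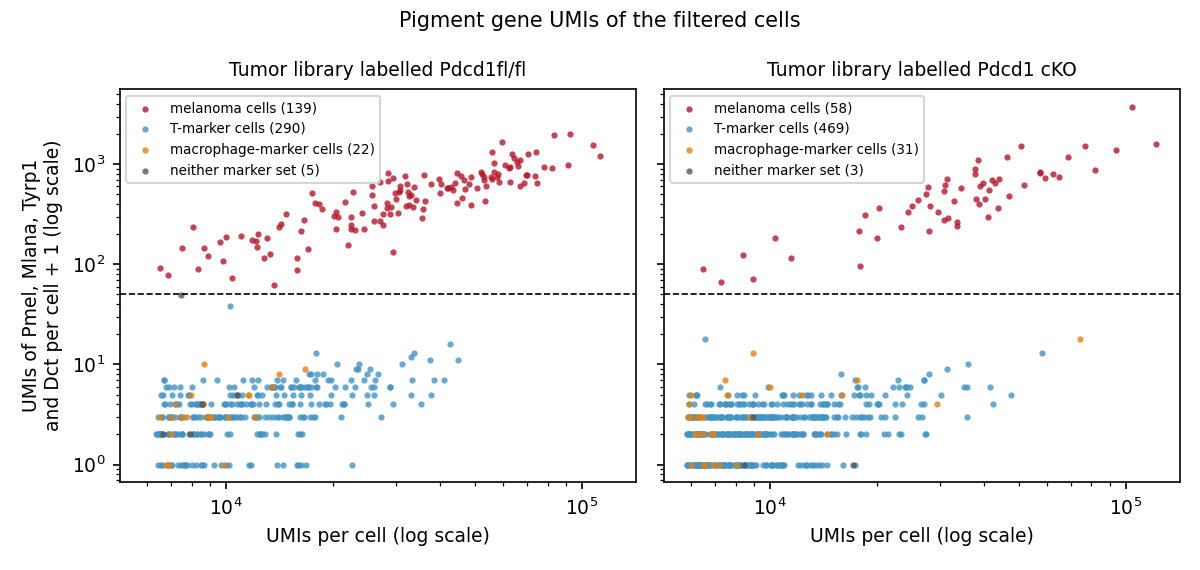
Each point is a filtered cell of the tumor library named above the panel, with its UMIs on the horizontal axis and its UMIs of Pmel, Mlana, Tyrp1 and Dct plus 1 on the vertical axis, both on log scales; colors give the marker class, and the dashed line marks the 50 UMIs of the rule. The 139 and 58 melanoma cells lie above the line at a median of 510 and 492 UMIs, and the highest cells below it are at 48 and 17.

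RNA of the rule genes was low but not absent in other cells of the tumor libraries. It stood at 14572 and 15680 CPM in melanoma cells and at 237 and 156 CPM in T-marker cells, which are the 290 and 469 other cells with at least 3 UMIs over Cd3d, Cd3e, Cd3g, Cd8a and Cd8b1 and more of these than of macrophage genes. The 22 and 31 macrophage-marker cells (at least 5 UMIs over Lyz2, C1qa, C1qb, C1qc and Csf1r, and more of these than of the T genes) held 317 and 262 CPM. At least 1 such UMI was in 89.3% and 78.0% of T-marker cells at median depths of 11063 and 9115 UMIs. The tumor-free libraries held 9 and 38 UMIs of the rule genes in the thymus and 6 and 10 in the spleen, between 1.01 and 1.97 CPM, with no barcode above 2. Whole tumor libraries held 8287 and 4638 CPM.

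RNA of other lineages was present in melanoma barcodes and differed between the libraries. All 10 T cell markers had UMIs in both libraries, summing to 174 and 368 CPM (highest Trbc2 and Nkg7, in that order of libraries), against 6819 and 9336 CPM in T-marker cells. All 10 macrophage or monocyte markers had UMIs too, at 28.6 and 176 CPM (highest Lyz2 and C1qb), against 14452 and 13087 CPM in macrophage-marker cells. Melanoma cells with at least 3 UMIs of the 5 T genes were 64 of 139 and 48 of 58. Over all melanoma cells, the T gene level was 2.57% and 4.17% of that in T-marker cells. At least 5 UMIs of the 5 macrophage genes were in 1 and 3 melanoma cells, and 1 cell of the second library had 269. With a higher limit of 15 UMIs of either set, added after the values were seen, 0 and 3 melanoma cells were called mixed. In the second library, cells with 21 and 18 T gene UMIs were deep, at 121808 and 93737 UMIs against a median of 35962.5. A limit on counts thus takes deep cells too, and the cell with 269 macrophage gene UMIs had 57555 UMIs. Scrublet called 0 and 3 filtered cells as doublets, none of them melanoma cells, and no cell was removed.

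Among structural lineages, fibroblast markers summed to 10.9 and 5.69 CPM, with Col1a1, Dcn and Pdgfra at 0 in the second library, and keratinocyte markers to 2.86 and 1.31 CPM, with Krt5, Krt14 and Krt15 at 0 in both. Endothelial markers gave 144 and 182 CPM, of which Cdh5 held 121 and 150 CPM, Egfl7 16 and 14.9 CPM and Pecam1 6.86 and 17.9 CPM. Kdr had 1 and 0 UMIs and Cldn5 had none, and Cdh5 was also at 98.3 and 120 CPM in the other tumor cells. Dendritic markers gave 43.2 and 24.5 CPM, with Cd209a at 0 in both libraries and Fscn1, an actin-bundling gene, on top. B cell, neutrophil, NK cell and erythroid markers summed to at most 14.0 CPM each. Of the Y chromosome genes Ddx3y was at 275 and 297 CPM, while Xist had 4 and 0 UMIs.

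Pmel (ENSMUSG00000025359, chromosome 10, 128540064 to 128556107, plus strand), the fibril protein, was at 4721 and 5630 CPM. Mlana (ENSMUSG00000024806, chromosome 19, 29674900 to 29686034, plus strand), a melanosome membrane protein, was at 2572 and 3171 CPM. Tyrp1 (ENSMUSG00000005994, chromosome 4, 80752360 to 80769956, plus strand), an enzyme of melanin synthesis, was at 1472 and 1479 CPM. Dct (ENSMUSG00000022129, chromosome 14, 118250202 to 118289656, minus strand), the dopachrome tautomerase, was at 5807 and 5401 CPM. All 4, whose sum chose the cells, had log2 ratios of melanoma over other cells from 5.49 (Tyrp1, first library) to 6.67 (Pmel, second library). Every melanoma cell had UMIs of Pmel, Mlana, Tyrp1 and Dct.

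Outside the rule, 34 of 37 listed pigment cell genes had at least 20 UMIs in melanoma cells of both libraries together, the minimum for list members. Of these, 28 and 27 were at least 2-fold above the other tumor cells, with a median log2 ratio of 3.96 and 3.84. The background was 45.3% and 36.4% of 11678 genes at least 2-fold higher, with medians of 0.86 and 0.60 over all genes. These genes were read in cells chosen by genes that vary with them, so nothing is drawn from the counts. Tyr, the tyrosinase that starts melanin synthesis, was at 644 and 564 CPM against 17.7 and 11.0 CPM in the other cells. Slc45a2 and Slc24a5, transporters of the melanosome, were at 559 and 479 CPM and at 481 and 432 CPM. Mc1r, the receptor of melanocyte-stimulating hormone, was at 122 and 119 CPM against 1.45 and 1.77 CPM. Cd63, a tetraspanin of melanosomes and other late endosomes, had most UMIs of the list, at 3661 and 4411 CPM.

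Factors of the pigment lineage were lower in level and as a list less set apart, with medians of 1.39 and 1.76. Mitf was at 297 and 267 CPM, with log2 ratios over the other cells of 4.59 and 5.27. Sox10, a neural crest factor, was at 94.5 and 78.3 CPM, and Pax3, a paired box factor upstream of Mitf, at 117 and 77.0 CPM. Of the 10 factors with enough UMIs, 7 and 6 were at least 2-fold above the other cells, beside 45.3% and 36.4% of all genes. In the list of neural crest and low-pigment state genes, S100b and S100a1, calcium-binding proteins used as melanoma markers, were at 636 and 739 CPM and at 621 and 864 CPM. Only 15 of its 26 genes had at least 20 UMIs, and 3 had none in either library.

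Ranked by the smaller ratio of both libraries, the leading genes over the other cells were mostly not pigment genes. This ranking favours genes with almost no UMIs in the other cells, where the rule genes still stood at 253 and 162 CPM. Ccdc13, a coiled-coil gene, was at 36.6 and 45.9 CPM against 0.242 and 0.177 CPM. Pla2g2e, a secreted phospholipase, was at 23.8 and 41.1 CPM against 0 and 0.355 CPM. Acot1, an acyl-CoA thioesterase, was at 51.0 and 54.2 CPM against 0.484 and 0.177 CPM. Rhox5, a homeobox gene of the X chromosome with its normal place in the reproductive tract, was at 333 and 284 CPM, yet it was read in only 62 of 139 and 19 of 58 cells. The 15 leaders also included Slc24a5, Gpr37, Pmel, Mc1r, Kcnj13 and Fabp7. Of these, Fabp7, a fatty acid carrier of glia and melanoma, was at 89.7 and 70.0 CPM. Kcnj13, a potassium channel, was at 312 and 572 CPM and differed most between the libraries among the 15, by a ratio of 0.87 (0.77 to 0.98).

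Other programs were also read against the other tumor cells, beside the same 45.3% and 36.4% of genes at least 2-fold higher and medians of 0.86 and 0.60. Interferon response genes had medians of 2.02 and 1.90, with 29 and 26 of 37 at least 2-fold higher. Glycolysis genes had medians of 1.23 and 1.00 (11 and 10 of 20), and hypoxia genes of 1.32 and 1.38 (10 and 11 of 18). Lysosome genes had medians of 1.27 and 1.15 (11 and 9 of 18), and mitochondrially encoded genes of 0.97 and 0.73 (6 and 3 of 13). The mitochondrial genes were thus close to all genes by median, and below them by count in the second library. Nuclear respiratory chain genes were near the medians of all genes, at 0.74 and 0.72.

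Several programs had medians below 0 in melanoma cells. Cytosolic ribosomal proteins held 21.9% and 20.3% of melanoma UMIs, with medians of -0.86 and -0.78 against the other cells. Of 81 genes, 4 and 3 were above the other cells, beside 9208 and 8196 of 11671 gene symbols. S phase genes had medians of -0.33 and -0.70, and G2 and M phase genes of -0.40 and -0.38. MHC class I genes stood at -0.43 and 0.25 and class II genes at -0.50 and 1.47. For class I and class II the melanoma cells were thus below the other tumor cells by the median in the first library and above them in the second. By summed level, class I in the first library was instead higher in melanoma cells, at 12162 CPM against 11091 CPM. Summed class II there was at 1108 CPM in melanoma cells and 1941 CPM in the other cells. Of these, T-marker cells held 412 CPM and the 22 macrophage-marker cells 23935 CPM. The remaining lists had medians of 1.51 and 0.82 (unfolded protein and amino acid stress), 0.78 and 0.21 (heat shock and immediate early genes), 1.12 and 0.53 (iron and redox), 1.12 and 0.63 (melanoma drivers and suppressors), 2.25 and 2.89 (neural crest) and 0.00 and -0.33 (checkpoint ligands). Setting the median of ratios over genes with at least 100 UMIs to 0 lowers all these values by 0.87 and 0.69. The sign then changes for respiratory chain genes in the first library (-0.13), for heat shock genes in both (-0.09 and -0.48), for checkpoint ligands in the first (-0.87), and in the second for class I (-0.44), iron and redox (-0.16) and drivers (-0.06).

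Promoters of 3 of the 5 genes Pmel, Mlana, Tyrp1, Dct and Tyr were matched by symbol in the RefSeq promoter table (GRCm38.p6, 250 bases before to 50 after the start), and Pmel and Mlana were missing. All 3 held the M-box CATGTG (or CACATG on the other strand), the element named for melanocyte genes that Mitf can bind, and 0 held the E-box CACGTG. Of all 32851 promoters of the same length, 14.2% held an M-box and 7.15% an E-box. In the pigment list, to which Tyr also belongs, 30 of 37 genes matched, and 9 of their 36 promoters (25%) held an M-box and 7 (19.4%) an E-box. A match describes the letters of the window and is neither a binding site nor a cause. Read outward from the M-box nearest the start until a base differed, the promoters of Tyrp1, Dct and Tyr shared the 10 bases GTCATGTGCT. Of the 32851 promoters, 61 (0.186%) held this string, but it was taken from these 3 promoters, so the share is not a test. Their windows are shown because the bases around the motif are alike in the 3 enzymes of the pathway, with each M-box in capitals, 5′ to 3′ on the strand of the gene. By exact match of the RefSeq sequence to GRCm39, they lie at chr4:80752392-80752421 (plus strand, in a non-coding part of an annotated Tyrp1 exon), chr14:118289778-118289908 (minus strand, outside the annotated Dct gene) and chr7:87142711-87142766 (minus strand, with its last 10 bases in the first exon of Tyr).
Tyrp1: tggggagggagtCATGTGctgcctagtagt
Dct: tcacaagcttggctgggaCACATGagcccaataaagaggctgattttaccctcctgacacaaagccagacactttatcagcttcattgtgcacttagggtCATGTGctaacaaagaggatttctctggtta
Tyr: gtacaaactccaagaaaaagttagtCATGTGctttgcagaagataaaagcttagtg

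Between the libraries, most genes of the melanoma cells had similar levels. Of 6265 genes with at least 100 UMIs in the melanoma cells of both libraries together, 141 (2.25%) were at least 2-fold higher and 159 (2.54%) at least 2-fold lower in the library labelled Pdcd1 cKO, and their median ratio was -0.12. Among the 11678 genes with at least 20 UMIs, the floor of the list members, these shares were 3.71% and 8.18%, with a median of -0.15 and 63.5% of genes below 0. The same genes had a median of 0.03 in the other tumor cells.

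Some of these genes differed in other cells too. Of the 141 and 159 genes, 38 (27.0%) and 28 (17.6%) were also at least 2-fold different the same way in the T-marker cells, beside 240 (3.83%) and 287 (4.58%) of all 6265 genes. In 35 (24.8%) and 33 (20.8%), a single cell held at least 50% of the UMIs in the library where the gene was higher, against 66 (1.05%, second library) and 43 (0.686%, first library) of all 6265 genes. These counts were added after the values were seen.

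Pmel and Mlana had ratios of 0.25 (0.22 to 0.28) and 0.30 (0.26 to 0.34), Tyrp1 of 0.01 (-0.05 to 0.07) and Dct of -0.10 (-0.13 to -0.07). For Dct the sign changes to 0.01 when the median of ratios over genes with at least 100 UMIs is set to 0, which raises every ratio between the libraries by 0.12. Of the 34 pigment genes outside the rule, 15 were above and 19 below 0 (beside 63.5% of all genes below) with a median of -0.03. Of these, 0 passed 2-fold in either direction, beside 3.71% of all genes higher and 8.18% lower. Their median is 0.09 under the same scaling. Cited1, a transcriptional coactivator, had a ratio of 0.70 (0.61 to 0.79), from 462 to 751 CPM. Bace2, a protease that acts on Pmel, had 0.65 (0.50 to 0.79), and Oca2, a melanosome channel, -0.48 (-0.70 to -0.26). Of the 10 pigment factors, 8 were below 0 (beside 63.5% of all genes) with a median of -0.27, and none passed 2-fold beside the same shares. That median ranged from -0.33 to 0.40 over the alternatives, so its direction depends on the cells taken. Pax3 had -0.61 (-0.86 to -0.36).

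MHC class I genes were higher in melanoma cells of the library labelled Pdcd1 cKO. All 20 listed genes were measured, and 19 were above 0 beside 4257 of 11671 gene symbols. At least 2-fold higher were 10 of 20 beside 3.71% of all genes, and the median was 0.99 beside -0.15. The summed level of the list was 12162 and 20447 CPM. In the other tumor cells the same genes had a median of 0.26, and in T-marker cells of 0.21. Without the 3 mixed cells, 18 of 20 were above 0 and 6 of 20 at least 2-fold higher, with a median of 0.89. These stand beside the same shares of all genes, counted in all melanoma cells. Since T cell markers were also higher in these barcodes, the profile of the T-marker cells was subtracted as an added alternative, and the median was then 1.02 over 19 genes.

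B2m (ENSMUSG00000060802, chromosome 2, 121977957 to 121983594, plus strand), the light chain of class I, was at 7394 and 11709 CPM, a ratio of 0.66 (0.64 to 0.69). H2-D1 and H2-K1, the classical heavy chains of C57BL/6 mice, were at 1240 and 2456 CPM (0.99, 0.93 to 1.04) and at 1008 and 1890 CPM (0.91, 0.85 to 0.97). H2-T23 (ENSMUSG00000067212, chromosome 17, 36340229 to 36345571, minus strand), which encodes the non-classical molecule Qa-1, was at 20.4 and 145 CPM. Its ratio of 2.83 (2.51 to 3.16) was the highest of the list. It was 2.80 without the 3 mixed cells, and 2.18 (20.4 and 92.8 CPM) in the 75 and 10 cells with fewer than 3 T gene and 5 macrophage gene UMIs, with UMIs after thinning to 5000 in 7 of 75 and 1 of 10 of them. T-marker cells held 138 and 198 CPM of H2-T23. Canx, a chaperone of the endoplasmic reticulum, was the 1 gene below 0, at -0.47 (-0.62 to -0.32).

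MHC class II genes showed the largest median of the 19 lists. All 8 were at least 2-fold higher in the second library, beside 3.71% of all genes, with a median of 2.22, and their summed level was 1108 and 5274 CPM. Cd74, the invariant chain, was at 629 and 3140 CPM (2.32, 2.26 to 2.38), and the class II chains H2-Aa and H2-Ab1 at 170 and 788 CPM and at 102 and 500 CPM. Ciita, the master regulator of class II, had the lowest ratio, 1.34. Macrophage-marker cells held 11335 and 14581 CPM of Cd74. Cd74 was at 174 and 175 CPM in T-marker cells, and the whole list at 412 and 403 CPM there. Without the 3 mixed cells, 8 of 8 remained at least 2-fold higher (beside the same 3.71% in all melanoma cells) with a median of 2.04, a summed 4995 CPM in the second library, and a macrophage gene level of 37.3 CPM against 19.0 CPM in the first. Cd74 UMIs were read in 120 of 139 and 57 of 58 melanoma cells, and the highest single cell held 8.42% and 12.3% of them.

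Interferon response genes were higher in both cell classes. In melanoma cells, 28 of 37 were above 0 beside 4257 of 11671 gene symbols, and the median was 0.62 (0.40 to 0.90, order statistics over the genes). At least 2-fold higher were 12 beside 3.71% of all genes, and at least 2-fold lower was 1 beside 8.18%. In T-marker cells the median was 0.51, and a difference between the cell classes was not tested. The melanoma median was 1.39 without melanoma cells with at least 3 T gene or 5 macrophage gene UMIs, which leaves 75 and 10 cells, and 0.92 with every cell thinned to 5000 UMIs. Summed levels were 5513 and 9558 CPM in melanoma cells and 1424 and 2024 CPM in T-marker cells. Ifitm3, which blocks virus entry, was at 1482 and 2747 CPM, and Bst2, which tethers virus particles, at 1352 and 2103 CPM. Irgm2 (ENSMUSG00000069874, chromosome 11, 58090444 to 58113615, plus strand), an interferon-inducible GTPase, was at 89.9 and 323 CPM, the highest ratio of the list at 1.84 (1.68 to 2.01). Cxcl10, the chemokine that draws Cxcr3-bearing T cells, was at 788 and 751 CPM, a ratio of -0.07 (-0.15 to 0.01). Jak2, a kinase of the interferon-gamma receptor, had the lowest ratio, -1.11 (-1.92 to -0.36), at 16.9 and 7.87 CPM.

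A short form of the interferon-stimulated response element, GAAA, any 2 bases and again GAAA, was searched on both strands in the same promoters after the values were seen. It was in 17 of 34 promoters (50%) of the 30 interferon response genes that matched, and in 4 of 20 (20%) of the 18 matching class I genes, beside 3.44% of all promoters. Those 4 were B2m, Erap1, H2-T23 and Psme1. In the pigment list it was in 0 of 36. Windows of B2m, Irgm2 and Isg15 are shown as examples from both lists, with each match in capitals. On GRCm39 they lie at chr2:121978019-121978048 (plus strand, in a non-coding part of an annotated B2m exon), chr11:58105714-58105773 (plus strand, in an intron of Irgm2) and chr4:156285307-156285378 (minus strand, outside the annotated Isg15 gene), and the sequences are from RefSeq as above.
B2m: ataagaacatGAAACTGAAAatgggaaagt
Irgm2: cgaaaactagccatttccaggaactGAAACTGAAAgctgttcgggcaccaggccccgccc
Isg15: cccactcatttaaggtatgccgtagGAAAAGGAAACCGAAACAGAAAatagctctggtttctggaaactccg

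Surface proteins that T cells meet varied gene by gene. Cd274 (ENSMUSG00000016496, chromosome 19, 29344529 to 29365495, plus strand), which encodes PD-L1, was at 16.8 and 47.2 CPM in melanoma cells, a ratio of 1.50 (1.08 to 1.92). It was 1.33 without the 3 mixed cells, but 0.77 and thus under 2-fold in the 75 and 10 cells with fewer than 3 T gene and 5 macrophage gene UMIs, where Cd274 was at 10.9 and 18.6 CPM. UMIs of it were in 32 of 139 and 35 of 58 cells. With every cell thinned to 5000 UMIs, these shares were 7.91% (4.02 to 13.7) and 20.7% (11.2 to 33.4), against 5 of 290 and 15 of 469 T-marker cells and 8 of 22 and 22 of 31 macrophage-marker cells. In the 75 and 10 cells they were 6 and 1 cells, or 8% and 10%. Lgals1, a galectin that binds T cell glycans, was at 4172 and 5242 CPM, and Lgals9, a ligand of Tim-3, at 138 and 171 CPM. Nectin2 and Pvr, ligands of T cell and NK cell receptors, were at 18.9 and 11.4 CPM and at 29.3 and 29.7 CPM. Of the list, 13 of 23 genes had enough UMIs, with a median of 0.31 (0.27 to 0.78 over the alternatives) beside 0.55 in T-marker cells. Of them, 3 were at least 2-fold higher (beside 3.71% of all genes), Lgals3 of the macrophage class below among them, and 1 at least 2-fold lower (beside 8.18%).

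Replication genes were lower in the melanoma cells of the library labelled Pdcd1 cKO. Of 24 S phase genes, 23 were below 0 (beside 63.5% of all genes) and 6 at least 2-fold lower beside 8.18% of all genes, with a median of -0.75 beside -0.15 and with -0.03 in T-marker cells. Pcna, the sliding clamp of DNA polymerase, was at 227 and 143 CPM (-0.66, -0.84 to -0.49), and Mcm7, a subunit of the replicative helicase, at 28.6 and 8.75 CPM (-1.71, -2.46 to -1.03). G2 and M phase genes had a median of -0.21 with 19 of 26 below 0 (beside 63.5% of all genes) and none past 2-fold (beside 3.71% higher and 8.18% lower), and -0.41 without the 3 mixed cells. Over all alternatives this median ranged from -0.66 to -0.05. Hmgb2, a chromatin protein of dividing cells, was at 232 and 201 CPM.

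After thinning to 5000 UMIs, which left out 0 cells, Mki67 or Top2a, genes of cycling cells, had a UMI in 11.5% (16 of 139, 6.72 to 18.0) and 5.17% (3 of 58, 1.08 to 14.4) of melanoma cells. The difference in this share was not tested. Without thinning the shares were 33.1% and 25.9%. T-marker cells, which also divide, gave 17.6% and 14.7% after thinning. Macrophage-marker cells gave 9.09% (2 of 22, 1.12 to 29.2) and 3.23% (1 of 31, 0.0816 to 16.7). These intervals are wide and hold the melanoma shares, so free RNA was not separated from cycling by this measure.

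Driver and suppressor genes of melanoma had a median of -0.41 (-0.47 to -0.02 over the alternatives), with 17 of 18 below 0 beside 63.5% of all genes. Cdk4, the G1 kinase, was at 344 and 309 CPM, and Dusp6, a phosphatase made under MAP kinase signalling, at 60.2 and 33.2 CPM (-0.86, -1.24 to -0.49). Mitochondrially encoded genes had a median of -0.52 with 12 of 13 below 0 (beside 63.5% of all genes), beside a median of -0.40 in T-marker cells, but of 0.034 in the 75 and 10 cells with fewer than 3 T gene and 5 macrophage gene UMIs. Heat shock and immediate early genes, which tissue digestion can raise, had a median of -0.47 (0.09 in the same 75 and 10 cells), with Hsp90aa1 at 875 and 555 CPM and Fos at 324 and 236 CPM.

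The remaining lists had medians closer to 0, beside -0.15 for all genes. Nuclear respiratory chain genes had a median of 0.11, with 63 of 78 above 0 beside 4257 of 11671 gene symbols. Medians were -0.13 for ribosomal proteins, -0.12 for glycolysis, 0.04 for hypoxia, 0.09 for iron and redox, 0.02 for lysosome and 0.09 for neural crest genes. Over the alternatives the medians of glycolysis (-0.27 to 0.02), hypoxia (-0.10 to 0.16) and lysosome genes (-0.21 to 0.26) lay on both sides of 0. The ribosomal protein median ranged from -0.46 to -0.01. Ranges were 0.02 to 0.23 for respiratory chain genes, 0.04 to 0.20 for iron and redox, and 0.04 to 0.29 for neural crest genes. The glycolysis median is 0.00 with the median of ratios set to 0. Single genes in them still differed. Tfrc, the transferrin receptor, was at 42.7 and 19.2 CPM (-1.15, -1.65 to -0.68), and Gpx1, a glutathione peroxidase, at 1394 and 2208 CPM (0.66, 0.61 to 0.71). Tmsb10, an actin-binding peptide, had most UMIs of all genes in the melanoma cells of both libraries together, though not in the first library alone. It was at 7705 and 12843 CPM (0.74, 0.72 to 0.76), but at 6022 and 5101 CPM in T-marker cells.

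**Figure D2:**
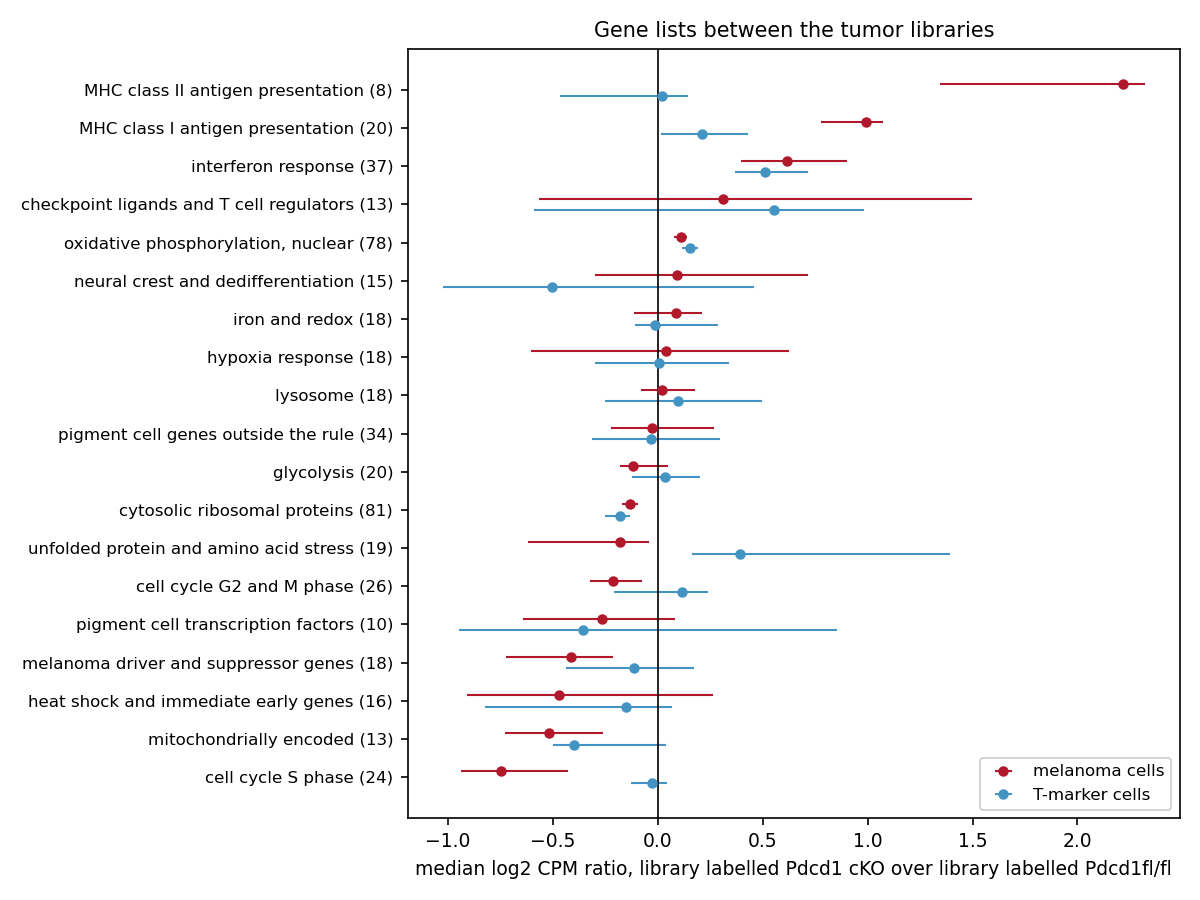
Points are medians of the log2 CPM ratio, second library (labelled Pdcd1 cKO) over first, for each of 19 gene lists (number of genes in brackets) in melanoma cells and in T-marker cells, and lines are 95% order-statistic intervals over the genes. In melanoma cells MHC class II stands at 2.22, MHC class I at 0.99 and S phase at -0.75, while in T-marker cells they stand at 0.02, 0.21 and -0.03.

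The largest single-gene ratios fell into classes. In the first class, the gene differed the same way in melanoma and T-marker cells. Gm47854 had 0 and 829 UMIs in melanoma cells (at least 9.31 on the log2 scale, with a floor of 3 counts), and T-marker cells held 0 and 377 CPM of it beside 363 CPM in the melanoma cells. Ankrd50, Ecpas and Bmpr1a had ratios of 3.96, 3.21 and 2.55 in melanoma cells and of 4.03, 4.74 and 6.17 in T-marker cells. Rgs11 had 201 and 0 UMIs (at most -4.87), with 130 and 0 UMIs in T-marker cells. Vwc2l, with 425 UMIs and 1 UMI, had -7.53 (-12.84 to -5.05), beside -6.59 in T-marker cells. Mipep, Tafa2 and Fhod3 had -4.79, -4.38 and -2.86, again beside -4.58, -4.36 and -3.08 in T-marker cells. Among these genes the CPM of Mipep, Tafa2 and Fhod3 were nearly the same in melanoma and T-marker cells, for example 134 and 114 CPM of Mipep in the first library.

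In the second class, genes of macrophages were high in the melanoma barcodes of the library labelled Pdcd1 cKO. Fcer1g, an Fc receptor chain, was at 6.09 and 83.6 CPM (3.78), Ccl8, a chemokine, at 3.81 and 45.5 CPM (3.58), and C1qb, a complement subunit, at 6.67 and 61.2 CPM. A single cell held 52.4%, 43.3% and 81.4% of their UMIs in that library. Without the 3 mixed cells, the ratios were 1.74, 2.15 and 0.65 (-0.21 to 1.47). Lgals3, a galectin at 4256 and 9243 CPM in macrophage-marker cells, was at 12.0 and 132 CPM (3.46) and had 2.33 without those cells. In T-marker cells, Fcer1g, C1qb and Lgals3 were also at least 2-fold higher in the second library (2.18, 1.67 and 1.67), so they meet the first class too.

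In the third class, a large part of the UMIs came from 1 cell. Parp4 had 223 UMIs in the first library, of which 183 (82.1%) were from a single cell, and a ratio of -2.79. Adam23, Alk, Ncam1 and C77080 took 72.7%, 78.6%, 68.5% and 72.7% of their UMIs in the first library from 1 cell each, and Dpp6 41.5%. Chmp7, a subunit of the membrane remodelling complex ESCRT-III, had 249 UMIs in the second library, of which 201 (80.7%) were from a single cell. Apart from Dpp6, ratios of summed UMIs for these genes rest largely on 1 cell. In the 75 and 10 cells with fewer than 3 T gene and 5 macrophage gene UMIs, the sign was reversed for Alk (2.03), C77080 (0.14), Dpp6 (1.27) and Chmp7 (-0.93).

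Outside these classes, H2-T23, Ly6a and AW112010 were among the 12 highest ratios and Arhgap29 among the 12 lowest. Ly6a, the surface protein Sca-1, was at 16 and 101 CPM (2.65), and AW112010, a transcript of interferon-treated cells, at 30.7 and 183 CPM (2.58). These had 1.93 and 2.17 without the 3 mixed cells, but Ly6a had -0.20 and AW112010 1.90 in the 75 and 10 cells with fewer T gene and macrophage gene UMIs. T-marker cells held far more of both, 492 and 606 CPM of Ly6a and 991 and 1642 CPM of AW112010. Arhgap29, a GTPase-activating protein, was at 40.2 and 7.44 CPM, and its highest cell held 2.84% of the UMIs in the first library.

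Melanoma cells varied widely among themselves within a library. Rule genes ranged from 4478 to 29844 CPM per cell in the first library (median 14133) and from 5297 to 36046 CPM in the second (median 13610). Class I genes ranged from 2471 to 26031 CPM (median 12116) and from 4618 to 42455 CPM (median 19662), and 47 of 58 cells of the second library were above the median of the first. For interferon response genes the medians were 4471 and 8874 CPM, and 49 of 58 cells were above the first median. Of single genes, Tmsb10 was above it in 53 of 58 cells and B2m in 43 of 58, beside 27 of 58 for the rule genes. All these ranges overlap.

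**Figure D3:**
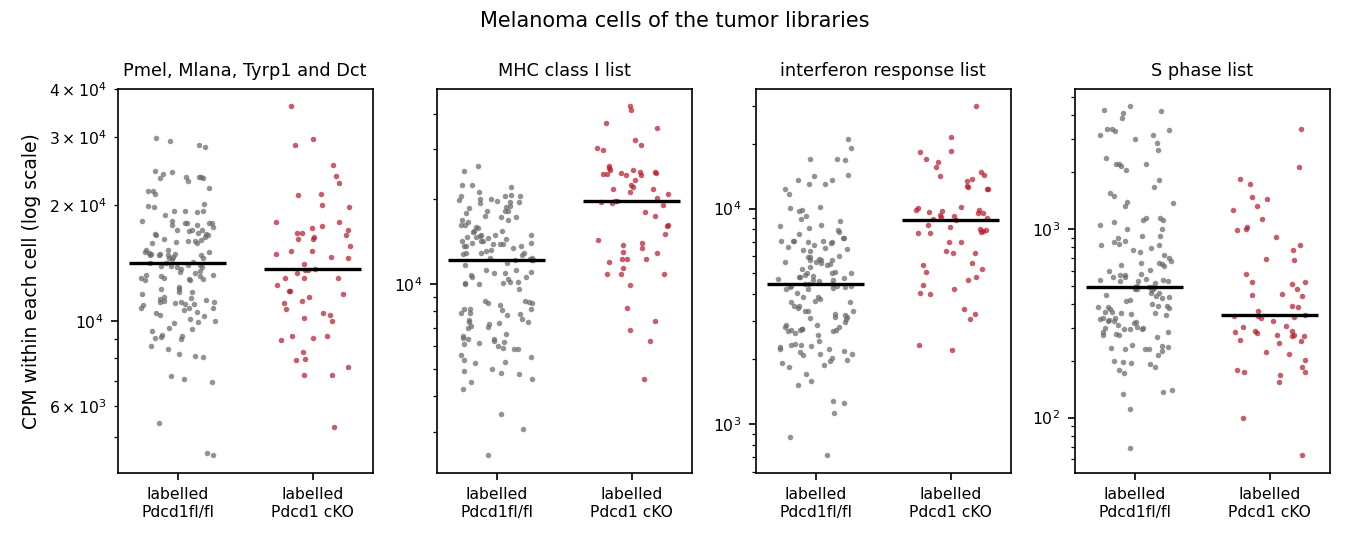
Each point is a melanoma cell, placed by library on the horizontal axis, with the CPM of the named genes within the cell on a log vertical axis; black bars are medians. Class I genes had medians of 12116 and 19662 CPM and interferon response genes of 4471 and 8874 CPM, whereas the rule genes had 14133 and 13610 CPM.

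Some pairs of programs went together from cell to cell in both libraries, and others had opposite signs. Spearman correlations over 139 and 58 cells are descriptions, since cells of a library share its depth range and its free RNA. Rule genes and the other pigment genes had 0.72 and 0.74, class I and interferon response genes 0.69 and 0.66, and S phase and G2 and M phase genes 0.61 and 0.53. Cells with more pigment RNA outside the rule had more class I RNA (0.53 and 0.63) and less G2 and M phase RNA (-0.46 and -0.42). They also had less ribosomal protein RNA (-0.53 and -0.45), which as a large share of all UMIs lowers other shares by construction. Class I and G2 and M phase genes had -0.30 and -0.50. Pairs of opposite sign included hypoxia and ribosomal protein genes (-0.19 and 0.41), hypoxia and iron genes (-0.11 and 0.40), interferon response and unfolded protein genes (-0.17 and 0.29), and class I and unfolded protein genes (-0.14 and 0.26). UMIs per cell had little relation to the rule genes (-0.03 and 0.17) or to class I genes (0.05 and 0.13).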

How the data were processed

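Filtered UMI counts per gene and barcode of 6 libraries were used as deposited: the authors made these raw counts with the PIPseq pipeline, aligned to GRCm39, and went on with Seurat 4.3.0. The annotation release behind the counts was not stated, and gene positions here are from GENCODE vM39. Cells needed at least 500 genes, 1000 UMIs and at most 20% mitochondrial UMIs, and melanoma cells at least 50 UMIs over the 4 rule genes. Tumor libraries held 9401747 and 7924590 UMIs.

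UMIs were summed over the cells of a set and library. CPM ratios carry exact conditional binomial 95% intervals and cell shares Clopper-Pearson intervals, both for counting error only. A gene with 0 UMIs in 1 library was set to a floor of 3 counts, as a bound. List medians carry order-statistic intervals over genes with at least 20 UMIs, and all genes past 2-fold stand beside each list. For shares of positive cells, UMIs of each cell were drawn without replacement to 5000 with a fixed seed. Scrublet, run through scanpy 1.11.5 per library, removed no cell. Promoters were matched by symbol and searched on both strands. Code used numpy 2.4.6, scipy 1.17.1, pandas 2.3.3 and matplotlib 3.10.9, and the ratio with its interval was tested on simulated data.

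With 1 library per genotype, groups were compared by description only. The rule, the lists and the cell classes were chosen with earlier results of these data known. Named genes are the rule genes and Pdcd1, the 10 genes with most UMIs, the 15 leading genes over the other cells, the 12 highest and 12 lowest between the libraries, in each list the 3 genes with most UMIs and the highest and lowest ratio, and members of the pigment, pigment factor and checkpoint lists. Ranked genes needed 100 UMIs, and between the libraries 20% of cells where higher, with 0.5 counts added for ranking. Other named genes were chosen after their values were seen. Alternatives changed the threshold, filter, mixed cells, scaling, cell weight, depth and count minimum. The ovalbumin transgene, reads and the authors' clusters were not used here.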

Additional observations from a re-analysis of the deposited data

Results flagged for a closer look

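Among 4205 genes with enough UMIs in both melanoma and T-marker cells, 5 differed at least 2-fold between the libraries in opposite directions in these cell classes, and each difference between the classes was not tested. Atrn, a membrane protein of the agouti pigment pathway, had a ratio of -1.10 in melanoma cells and 1.39 in T-marker cells, from 64 and 29 melanoma cells. Smurf2, a ubiquitin ligase, had 1.17 and -1.31, with 57 of its 88 UMIs in the second library from 1 melanoma cell. Chmp7 had 2.57 and -1.83, with 201 of 249 UMIs from 1 cell. Gm37853 had 7.32 (5.44 to 10.38, on 2 and 139 UMIs) and -1.54, with 137 of 139 UMIs from 1 cell. Pik3r6, a regulatory subunit of a PI3 kinase, had 1.75 and -1.42, with 117 of 119 UMIs from 1 cell.

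Genes of unfolded protein and amino acid stress had a median of -0.18 in melanoma cells and 0.39 in T-marker cells, beside -0.15 and 0.05 for all genes, and this difference was not tested. Of 19 genes, 16 were below 0 in melanoma cells, beside 63.5% of all genes, and the melanoma median is near that of all genes. Over the alternatives the melanoma median ranged from -0.63 to -0.06, beside -0.20 to 0.10 for all genes. Atf4, a factor of this response, had -0.35 and 0.39.

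Outside the cells used, 1 barcode of the library labelled Pdcd1fl/fl held 359 UMIs of the 4 rule genes. It failed the cell filter with 22.8% mitochondrial UMIs of 20912 UMIs, and the difference from the filtered cells was not tested.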

How the results depend on the processing

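No paired analysis was possible because each genotype had 1 library per tissue. The cause of each change below was not tested unless the setting itself shows it.

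Of 280 list medians between the libraries, recomputed over 14 alternatives, 250 kept within their interval, 28 moved and 2 reversed beyond it, and 16 had the opposite sign. Of 520 medians of melanoma over other cells, 474 kept, 42 moved and 4 reversed, and 16 had the opposite sign. For single named genes, only those past 2-fold could count as reversed, a limit set after the values were seen. Of 1927 such values, 339 moved, 7 reversed and 109 had the opposite sign. Over all alternatives, class I medians ranged from 0.89 to 1.12, class II from 2.04 to 2.74, interferon response from 0.57 to 1.39, S phase from -1.04 to -0.57 and pigment genes from -0.07 to 0.17.

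Leaving out melanoma cells with at least 3 T gene or 5 macrophage gene UMIs changed most. It leaves 75 and 10 cells, favours shallow ones and takes out cells with more T or macrophage RNA. Which of these moved the values was not tested. Shares were then 19.1% and 1.95%, medians were 1.12 (class I), 2.74 (class II), 1.39 (interferon), -1.04 (S phase), 0.034 (mitochondrial) and 0.10 (all genes), and the Mki67 or Top2a share of the second library was 0. Alk had 2.03, C77080 0.14, Chmp7 -0.93, Dpp6 1.27, Hspa1b 0.71 and Ly6a -0.20, all reversed.

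With the median of ratios set to 0, class I had 1.11 and class II 2.33. Against the other cells, all genes had -0.014 and -0.090, respiratory chain genes -0.13 in the first library, and iron and redox genes -0.16 in the second, by construction of the shift. Thinned to 5000 UMIs, class II had 2.36, interferon response 0.92 and Ndrg1 -0.22, and 28 genes were higher and 9 lower past 2-fold, of 1305 with enough UMIs. With a minimum of 50 UMIs these counts were 223 and 475 of 8992 genes, and with 200 UMIs 87 and 55 of 3956. The share with Mki67 or Top2a was 3.6% and 0 at 1000 UMIs, and 33.1% and 25.9% without thinning, so it is set by depth.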

Other observations

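Some values belong to no comparison above and were chosen after they were seen. Cdkn2a (chromosome 4, 89192708 to 89212890, minus strand), a suppressor of the cell cycle, had 1 and 2 UMIs in melanoma cells, against 49 and 136 UMIs in the other tumor cells. Cdkn2b, its neighbour, had 1 and 0 UMIs. Mtap (chromosome 4, 89055359 to 89099319, plus strand), a gene of the same region, had 230 and 62 UMIs, with log2 ratios of 2.18 and 1.33 over the other cells, and Klhl9, also there, had 182 and 34 UMIs.

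By chromosome, genes with at least 100 UMIs had the highest median ratio of melanoma over other cells on chromosome 6 (1.63 and 1.37, 386 genes) and among autosomes the lowest on chromosome 14 in the first library only (0.48, 201 genes). Both were read from RNA only, and DNA was not analysed here.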
